A study of Zea mays with 4 samples.

Results

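The maize leaf table held 2274 expressed loci at which the authors' transcript assembly found RNA but no gene model of the reference supplied a name. These loci were chosen by their measured level, since a locus was kept only if it reached at least 1 FPKM (sequenced fragments scaled to transcript length and library depth) in at least 2 of the 4 libraries. They made up 55.0% of the 4137 unannotated loci of the table and 9.93% of the 22889 loci, annotated or not, that passed the same filter. The remaining 1863 unannotated loci stayed below the filter, and 530 of them were listed at 0 in every library. Loci under 1000 bases (1074, called short here) and of 1000 bases or more (1200, called long) were described apart.

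The RNA came from the mature tissue of an expanding sixth leaf of the maize inbred B73, grown in hydroculture. High nitrogen (HN) plants received 4 mM nitrate, and low nitrogen (LN) plants were moved to 0.04 mM nitrate when the third leaf was fully out. Each treatment had 2 libraries, described as biological replicates, and nothing in the labels says that they came from separate cultures, so p-values measure the spread between these libraries. Plants of both treatments carried no transgene or mutation that the labels name.

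An assembled locus without a gene model can be several things. It can be a protein gene that the annotation missed, the unlinked end of a neighbouring transcript, a long noncoding RNA, or RNA read from one of the transposons that fill most of the maize genome. Some plant noncoding RNAs respond to nutrients, such as the phosphate starvation RNA IPS1 of Arabidopsis, which sequesters a microRNA. The values below do not sort the loci into these kinds, and no base sequence was read for them.

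The labelled tissue was checked against leaf genes. Of 12 marker names listed for photosynthetic, mesophyll and bundle sheath cells, 7 were found in the table. The 5 antenna genes of the photosystems ranged from 1556 to 24473 FPKM over the 4 libraries, and the 2 mesophyll names, each at its highest entry, from 2630 to 19557 FPKM. A second entry named GRMZM2G306345 had 1.63 FPKM in LN replicate 2 and values near 0 in the other libraries. None of the bundle sheath names was found, so these cells were not checked.

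The table runs through each chromosome 3 times, and the unannotated loci were not spread evenly over these listings. The first listing held 20572 loci and the second 20439, of which 1048 and 990 were unannotated. All 2099 loci of the third listing were unannotated. Of the short loci described here 69.3% stood in the third listing, against 15.3% of the long ones. The table has no strand column, so what separates the listings was not tested.

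In the third listing the FPKM of a locus moved in whole steps, where 1 step is the value of 1 sequenced fragment. Among values worth up to 5 steps, 100% lay within 0.1 of a whole number in each library, for example 421 of 421 values of HN replicate 1 at lengths of 360 bases or more. From 360 bases up, depth and fragment length were fitted per library so that these same values came out whole. Under 360 bases the step was traced from the same values. Wholeness in the third listing thus follows partly from the fit, in which the other listings were not used. Values of that size were whole in 40.7% to 48.3% of cases for unannotated loci of the other listings and in 53.3% to 56.0% for annotated loci. Fragment numbers were therefore read for the third listing alone, up to 2000 bases. The steps put the depth at about 8230000 and 9370000 fragments for HN replicates 1 and 2, and at about 11880000 and 14210000 for LN replicates 1 and 2.

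The value of 1 fragment depended steeply on length. At 1000 bases 1 fragment was worth 0.170, 0.147, 0.118 and 0.0972 FPKM in HN replicate 1, HN replicate 2, LN replicate 1 and LN replicate 2. At 300 bases it was worth 3.96, 3.10, 2.81 and 1.97 FPKM, and at 220 bases 61.5, 44.8, 34.2 and 25.5 FPKM in the same order. A single fragment thus met the 1 FPKM filter at lengths up to 404, 381, 367 and 341 bases. Among the 891 third-listing loci with a fragment number, 102 had at most 1 fragment in their second-highest library, and 188 (21.1%) had under 10 fragments in the 4 libraries together, all of them short.

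**Figure D1:**
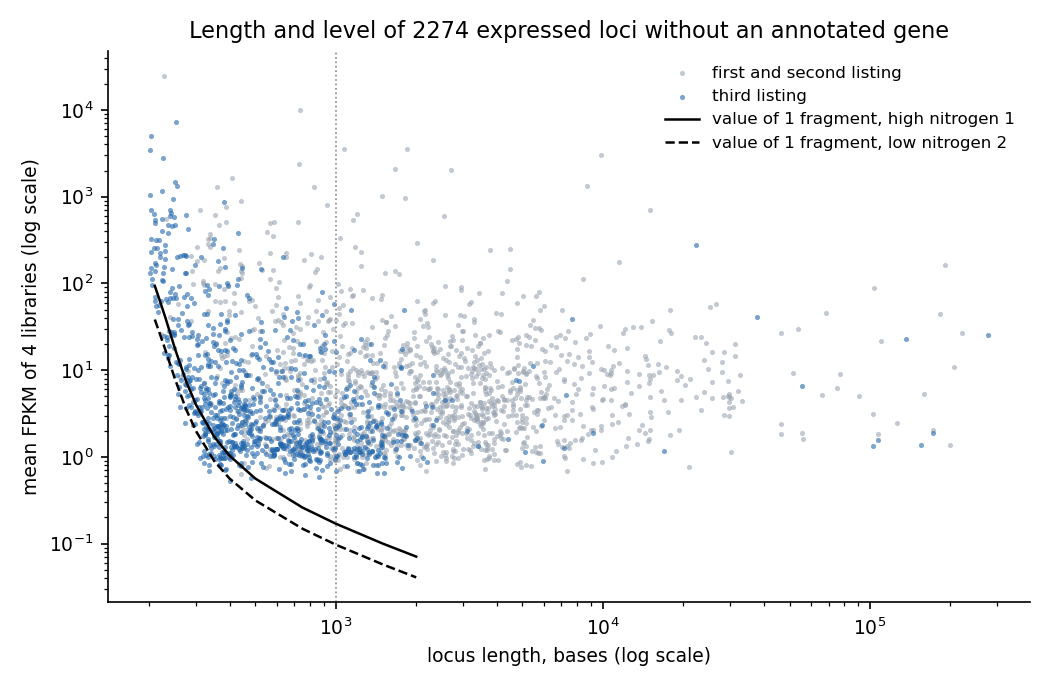
Mean FPKM over the 4 libraries (vertical, log scale) against locus length in bases (horizontal, log scale) for the 2274 loci, grey for the first and second listing and blue for the third. The black lines give the value of 1 fragment in the shallowest and the deepest library, which falls from 61.5 to 0.170 FPKM between 220 and 1000 bases in HN replicate 1, and the short third-listing loci follow the lines upward at their left end.

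Short loci had a median length of 478.5 bases and a minimum of 201. Long loci had a median span of 2592.5 bases and a maximum of 276394. Annotated loci that passed the filter had a median of 4257 bases. For 147 of the unannotated loci, 146 of them long, the start and end were exactly those of another entry, and for 69 of these the other entry was an annotated locus. Such a span is not the locus's own length. The 1054 long loci with bounds of their own had a median of 2366.5 bases and a maximum of 221540.

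The longest span and the shortest locus show both ends of this range. Novel_2651 carried the bounds of GRMZM2G133308/GRMZM2G174785 on chromosome 5 (chr5:91376004-91652397, B73 RefGen_v3), and its 30.4 and 17.5 FPKM under HN overlapped the 23.0 and 31.0 FPKM under LN. Novel_1294, 201 bases long (chr2:130333828-130334028), had 4170 and 4391 FPKM under HN and 4276 and 1016 FPKM under LN. Its 4 values came from 148 fragments in all, at a length where 1 fragment was worth 139 FPKM in HN replicate 1.

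Long unannotated loci had a lower median level than long annotated ones, and in the short class the order depended on which loci were counted. The median over loci of the mean FPKM was 4.33 for short and 4.06 for long loci, against 5.98 and 10.3 for annotated loci of the same length classes. Among loci at 1 FPKM or more in all libraries the medians were 13.9 FPKM for short and 6.47 for long unannotated loci, against 12.8 and 12.3 for annotated ones. Short loci of the first 2 listings had a median of 8.39 FPKM and those of the third 3.58. The filter chose these levels, so no test was made of them. The short class was the more spread, with 120 loci (11.2%) above 100 FPKM, compared with 29 (2.42%) in the long class. Of the 67 third-listing loci above 100 FPKM with a fragment number, 55 were under 300 bases and 19 rested on fewer than 30 fragments. Unannotated loci held 9.52% and 7.98% of all FPKM under HN and 11.5% and 12% under LN.

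The filter passed 1401 loci that had at least 1 FPKM in all 4 libraries, 53.5% of the short and 68.8% of the long class. A further 105 loci passed through the HN libraries alone and 91 through the LN libraries alone, and such loci had to differ between treatments. The edge of the filter can be seen in single loci. Just inside, Novel_3339 had 2.20 and 0.444 FPKM under HN and 1.0 and 0.391 under LN, and Novel_3738 had 1.0 and 0 under HN and 1.64 and 0 under LN. Just outside, Novel_3344 had 2.18 and 0.568 FPKM under HN and 0 and 0.999 under LN. Novel_1346, also outside, had 0 and 0.432 under HN and 3.83 and 0.996 under LN.

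The highest short locus was Novel_2021, 227 bases on chromosome 4 (chr4:18245736-18245962), with 17788 and 16934 FPKM under HN and 25176 and 39146 FPKM under LN. Both LN libraries stood above both HN ones, but the difference of 0.85 ± 0.36 (SE) on the log2(FPKM + 1) scale did not pass the test described below (adjusted p = 0.276, limma, n = 2 a group). This 1 locus took 0.989% and 0.960% of all FPKM under HN and 2.21% and 3.75% under LN. Novel_2421, 737 bases on chromosome 5 (chr5:177557699-177558435), had 15276 and 11108 FPKM under HN and 9404 and 3826 FPKM under LN. Its treatments did not overlap either and its difference also missed the test (adjusted p = 0.310, limma), and after quantile normalization the fitted difference was 0.12 in place of -1.12.

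The next short loci were under 300 bases. Novel_3164, 253 bases and 269 bases from GRMZM2G412937, had 11893 and 2894 FPKM under HN and 9714 and 4894 FPKM under LN. Replicate 1 was the higher in both treatments, and the treatments overlapped. Novel_1648, 203 bases, had 8133 and 8078 FPKM under HN and 1757 and 1859 FPKM under LN, from 211 fragments. Its replicates lay close together and the treatments far apart, with a log2 difference of -2.16 ± 0.26 (SE) and an adjusted p of 0.0621 (limma).

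The highest long loci reached lower levels and came from the first 2 listings. Novel_1515, 1074 bases and 789 bases from GRMZM2G319965, had 2639 and 3293 FPKM under HN and 3085 and 5059 FPKM under LN. Novel_3935, 1848 bases on chromosome 9, had 5447 and 4269 FPKM under HN and 2659 and 1657 FPKM under LN. The treatments overlapped at Novel_1515 and not at Novel_3935, which still missed the test (adjusted p = 0.179, limma). Novel_670, 1662 bases on chromosome 10, had 2943 and 2600 FPKM under HN and 1253 and 1658 under LN (adjusted p = 0.185, limma), and its fitted difference was 0.0052 after quantile normalization in place of -0.94. Novel_1900 carried the bounds of GRMZM2G164225 and had 2927 and 4009 FPKM under HN and 2172 and 3051 under LN, where the treatments overlapped.

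The spread between replicates was wider than for annotated loci in the long class, and in the short class only among third-listing loci. The median absolute difference between replicates, in log2(FPKM + 1), was 0.639 under HN and 0.591 under LN for short loci, and 0.379 and 0.438 for long loci. Annotated loci of the same classes gave 0.563 and 0.487, and 0.263 and 0.321. Short loci of the first 2 listings had 0.515 and 0.474, under the annotated values, and short loci of the third had 0.737 and 0.65. In the third listing this difference became smaller as fragments increased, from 1.42 under HN for loci with under 10 fragments to 0.366 for those with at least 1000.

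Part of this spread followed the replicate number. Over the long third-listing loci the median was 2.68 and 1.16 FPKM in HN replicates 1 and 2, and 1.99 and 0.680 FPKM in LN replicates 1 and 2. Both replicate 1 libraries stood above both replicate 2 libraries at 102 of these 183 loci (55.7%), and below them at 8 (4.37%). The same counts for annotated loci were 11.7% and 14.3%, and for long loci of the other listings 16.1% and 12.1%. With the 24 loci that borrow another entry's bounds set aside, 94 of 159 (59.1%) were higher in replicate 1, and among the 55 long third-listing loci at 1 FPKM or more in all libraries the share was 27.3%.

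The share grew with length over the third-listing loci that passed the filter. Third-listing loci with bounds of their own were higher in replicate 1 at 17.6% from 200 to 499 bases (n = 465), 33.0% from 500 to 999 bases (n = 279) and 55.9% from 1000 to 1499 bases (n = 111). Among third-listing loci at 1 FPKM or more in all libraries the classes lay closer together. There 79 of 349 short loci (22.6%) and 15 of 55 long ones (27.3%) were higher in replicate 1. Among the 41 long third-listing loci more than 50000 bases from any annotated locus, 30 were higher in replicate 1 and 0 were lower. Of the 126 short third-listing loci that far away 28 (22.2%) were higher in replicate 1, against 23.4% of all short third-listing loci. The excess was also seen that far away in the first 2 listings. Of 33 short loci there 13 (39.4%) were higher in replicate 1 and 1 (3.03%) was lower. Of 134 long ones 30 (22.4%) were higher and 5 (3.73%) were lower. These far loci were not counted apart at 1 FPKM or more in all libraries. At that level and any distance, 19.5% of short loci of the first 2 listings were higher and 12.4% lower. Of the long ones 15.3% were higher and 11.2% lower. Replicate 1 was the shallower library of each treatment by the fragment steps. A locus that passed the filter through replicate 1 alone had to be higher there. Below the filter, 80 of 240 long third-listing loci with any signal (33.3%) were higher in replicate 1 and 14 (5.83%) were lower. What sets the replicates apart was not tested, since the labels name no batch.

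**Figure D2:**
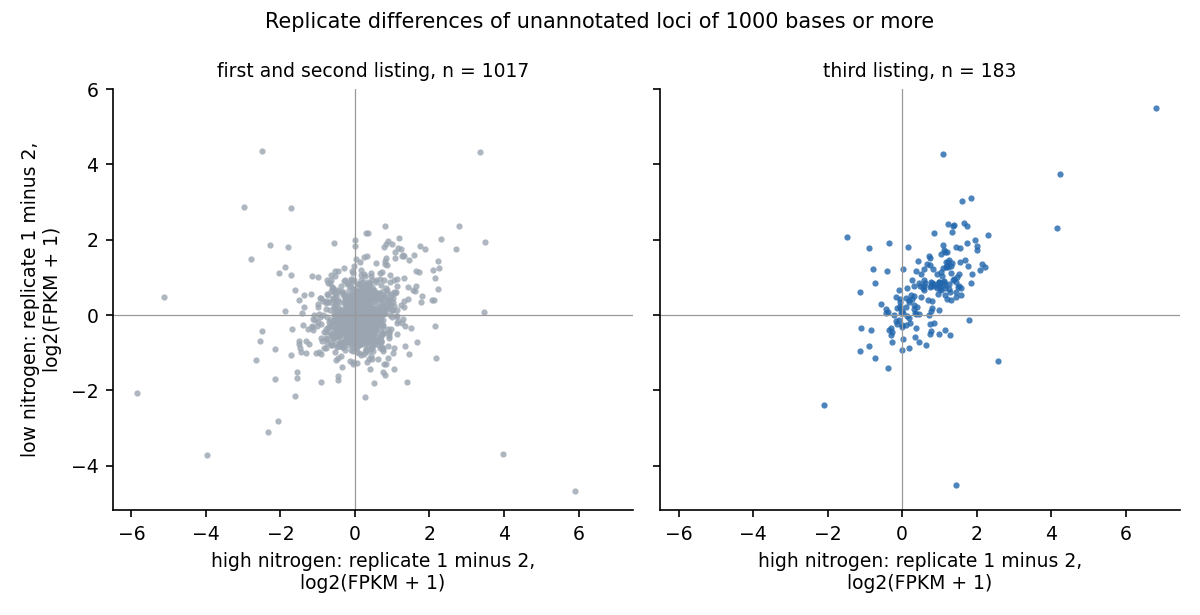
Difference between replicate 1 and replicate 2 in log2(FPKM + 1), high nitrogen on the horizontal and low nitrogen on the vertical axis, with 1 point for each unannotated locus of 1000 bases or more. The 1017 loci of the first and second listing centre near 0 on both axes, and the 183 of the third listing lie mostly in the upper right, with medians of 0.76 under HN and 0.73 under LN.

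The loci farthest from any annotated locus carried this replicate pattern. Novel_3035, a 1766-base locus on chromosome 6 that lay 375984 bases from GRMZM2G095211, had 1.56 and 0.215 FPKM under HN and 1.14 and 0.0472 FPKM under LN. Novel_3408 on chromosome 7, 368224 bases from the nearest annotated locus, had 6.13 and 1.74 FPKM under HN and 7.57 and 0.647 under LN. Novel_200 on chromosome 1, a locus of the second listing and 328005 bases away, had 2.04 and 0.375 FPKM under HN and 2.83 and 0.123 under LN. In all 3 both replicate 1 libraries were above both replicate 2 libraries, and the treatments overlapped. Novel_3035 and Novel_200 reached 1 FPKM in the replicate 1 libraries alone, so the filter fixed their replicate pattern.

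The median distance to the nearest annotated locus was 9218 bases for short and 8228.5 bases for long loci, against 5885 and 3085 bases from a short and a long annotated locus to the next. In the first 2 listings the medians were 6206 bases for short and 6298 for long unannotated loci, and in the third 10822 and 20947. Within 1000 bases of an annotated locus stood 200 short loci and 212 long ones, and 159 short and 175 long loci were more than 50000 bases away. None of the 2274 overlapped an annotated locus except the 69 with identical bounds. The position of the nearest annotated locus was not used in the choice of these loci, and these values are given without a test.

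All 10 chromosomes held such loci, from 164 on chromosome 9 to 301 on chromosome 2. Their share of the loci that passed the filter ranged from 8.34% on chromosome 1 to 11.3% on chromosome 10. The central stretch of each chromosome, from 25% to 75% of the way to the end of its last locus, held 42.5% of them and 31.8% of the annotated loci. Runs of 2 or more with no annotated locus between them took in 628 loci (27.6%).

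The longest run held 6 loci within 9342 bases of chromosome 7 (chr7:117257039-117266380), and neighbours in it differed widely in FPKM. Novel_3211, 1727 bases, had 4.96 and 17.3 FPKM under HN and 3.56 and 19.2 under LN. Beside it Novel_3461, 236 bases, had 377 and 374 FPKM under HN and 344 and 446 FPKM under LN, from 79 fragments in all. Novel_3462, 210 bases, followed with 469 and 207 FPKM under HN and 505 and 805 under LN. Novel_3296 (291 bases, mean of about 99.4 FPKM), Novel_3297 and Novel_3298 closed the run. None of the 6 was called between treatments.

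The response to nitrogen was tested as the low minus the high nitrogen mean of log2(FPKM + 1) with limma, over all 22889 loci that passed the filter. Calls needed a Benjamini-Hochberg adjusted p below 0.05 together with a log2 fold change beyond 1 in either direction. Since 1 is added to each FPKM, these differences understate the change of low loci. An exact permutation test of 1 locus with 2 libraries against 2 cannot go below p = 0.333.

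Of all tested loci 0.537% were called, 0.489% lower and 0.0481% higher under LN. Among the unannotated loci 22 (0.967%) were called, 15 lower and 7 higher. Of the short loci 13 were lower and 6 higher (1.77% together), and of the long loci 2 were lower and 1 higher (0.25%). Annotated loci of the same classes were called at 1.85% and 0.407%. Of the 22, 20 passed the filter through 1 treatment alone and so had to differ, and these shares are a description of the loci that passed it. Without HN replicate 1, 3 of the unannotated loci were called, and without any 1 of the other libraries 0 were, where 277 to 429 had an unadjusted p under 0.05 (limma) and a fold change past the threshold.

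Most called loci were listed at 0 in 1 treatment. Both LN libraries were listed at 0 for 10 of the 22 and both HN libraries for 7, which were all of the higher ones. Of the 22, 17 stood in the third listing, and 12 of those had under 30 fragments in the 4 libraries together. Without these 12, 7 short loci remained lower, none of the short ones higher, and the 3 long calls were as before. The 0 comes from the same limma fit, in which 73 short loci were higher at an unadjusted p under 0.05 with a fold change above the threshold.

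**Figure D3:**
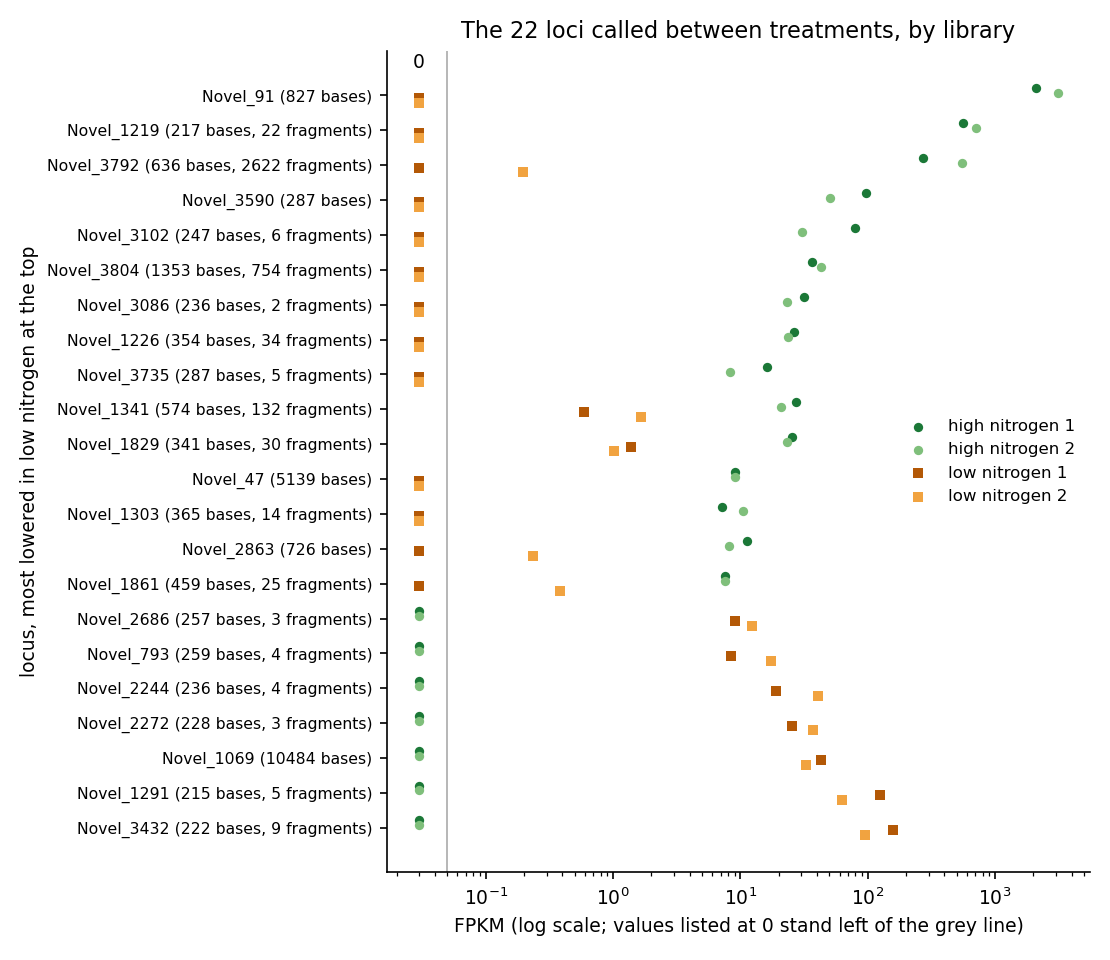
FPKM in each library (horizontal, log scale, with values listed at 0 to the left of the grey line) for the 22 called loci, ordered by fitted change, with length and, where it could be read, the fragment number of the 4 libraries together. Circles are high nitrogen and squares low nitrogen. The 7 higher loci have both circles at 0, and 6 of them rest on 3 to 9 fragments.

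The lower loci with most fragments were Novel_3792 and Novel_3804. For loci that passed the filter through 1 treatment alone, values are given without a p. Novel_3804, 1353 bases on chromosome 8 (chr8:157439877-157441229), had 36.6 and 42.8 FPKM under HN and 0 in both LN libraries. Its high nitrogen values came from 754 fragments. Against the 3 fragments that a count of 0 allows over both LN libraries, its level was at least 372-fold lower under LN. Limits of this kind cover counting error in the treatment at 0 alone, and the level of the other treatment enters as measured. They are too high where that level rests on few fragments. Novel_3792, 636 bases on chromosome 8 (chr8:146600101-146600736), had 271 and 545 FPKM under HN and 0 and 0.196 FPKM, worth 1 fragment, under LN. It rested on 2622 fragments, and its fitted change was -8.46 on the log2(FPKM + 1) scale.

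The largest fitted change belonged to Novel_91, 827 bases on chromosome 1 (chr1:219455814-219456640), at 2093 and 3106 FPKM under HN and listed at 0 in both LN libraries. It stood in the first listing, where fragments could not be read, so no fold is given. Other loci of that listing had the same pattern. Novel_3590, 287 bases on chromosome 8, had 96.6 and 50.1 FPKM under HN and 0 under LN, and Novel_47, 5139 bases on chromosome 1, had 9.13 and 9.05 FPKM under HN and 0 under LN.

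A high FPKM did not mean many fragments. Novel_1219, 217 bases on chromosome 2 (chr2:55382102-55382318), had 558 and 712 FPKM under HN and 0 under LN, and these values were 8 and 14 fragments. With the HN level taken as measured, it was at least 13.1-fold lower under LN. Novel_1226, 354 bases, had 26.1 and 23.7 FPKM under HN from 34 fragments and 0 under LN. By the same limit its level was at least 16.7-fold lower. Novel_3102, 247 bases, was called on 79.4 and 30.2 FPKM under HN, which were 6 fragments. The same limit was 3.28-fold lower, without the counting error of these 6 fragments. Novel_3086, 236 bases and 99 bases from GRMZM6G586976, was called on 31.4 and 23.3 FPKM that were 1 fragment in each HN library, so no fold is given. Novel_1226 and Novel_3086 were chosen after their values were seen.

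Of the 22 called loci, 1 had at least 1 FPKM in every library. Novel_1829, 341 bases on chromosome 3 (chr3:174451790-174452130), had 25.2 and 23.2 FPKM under HN and 1.39 and 1.01 FPKM under LN. It differed by -3.52 ± 0.23 (SE) in log2(FPKM + 1), with an adjusted p of 0.0145 (limma). Its 4 values were 30 fragments in all, 13 and 15 under HN and 1 in each LN library. Each LN library thus reached 1 FPKM through 1 fragment. The other called locus that did not pass the filter through 1 treatment alone was Novel_1341, 574 bases on chromosome 2. It had 27.2 and 20.8 FPKM under HN and 0.589 and 1.66 under LN, from 132 fragments (adjusted p = 0.0336, limma). Novel_1341 was chosen after its values were seen.

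The 6 short loci called higher rested on very few fragments. Novel_3432, 222 bases on chromosome 7, had 0 in both HN libraries and 159 and 94.4 FPKM under LN, worth 9 fragments. The same limit was 1.70-fold higher, without the counting error of these 9 fragments. For the other 5 the pooled low nitrogen level lay under that of 3 fragments under HN, and no fold can be given. Novel_1291 had 124 and 62.4 FPKM from 5 fragments, and Novel_2272 had 25.5 and 37.2 FPKM from 3 fragments. Novel_2244 and Novel_793 rested on 4 fragments each.

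The higher long locus could not be counted in fragments. Novel_1069, a 10484-base locus of the second listing on chromosome 2 (chr2:111403944-111414427), was at 0 in both HN libraries, with 43.0 and 32.5 FPKM under LN. The replicates of each treatment lay close together.

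**Figure D4:**
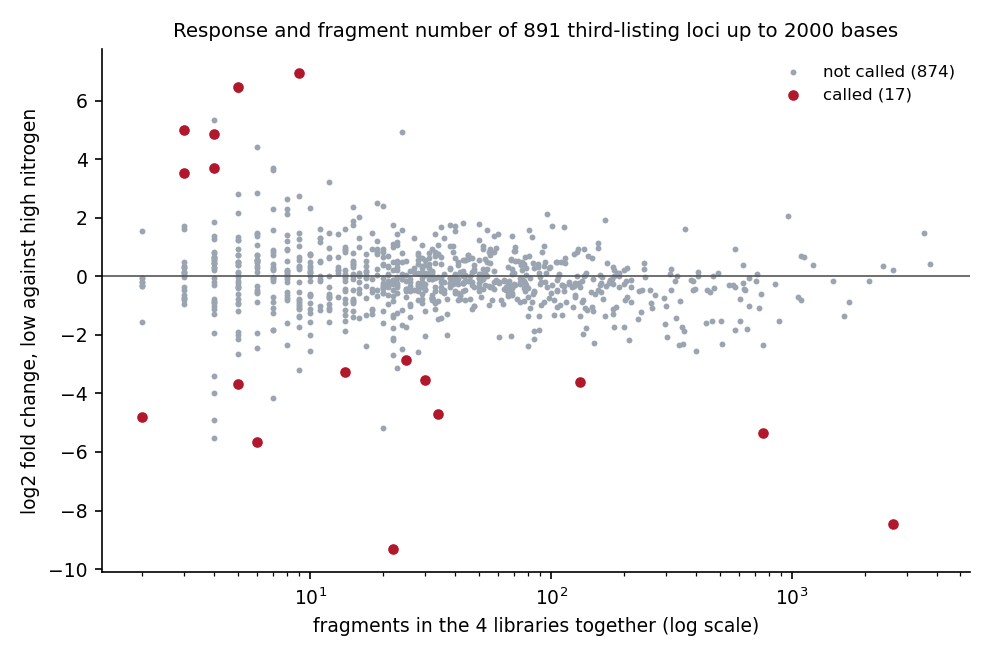
Fitted change in log2(FPKM + 1), low against high nitrogen (vertical), against the number of fragments in the 4 libraries together (horizontal, log scale) for 891 third-listing loci of up to 2000 bases, with the 17 called loci in red. Called loci higher under LN lie at 3 to 9 fragments, and the largest fragment numbers among the called loci, 2622 and 754, belong to lower ones.

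Some loci expressed in all libraries separated by treatment without passing the test. Novel_3197, 569 bases on chromosome 7, had 2.53 and 1.6 FPKM under HN and 384 and 62.8 FPKM under LN. All 4 libraries separated by treatment, at 5.69 ± 0.86 (SE) in log2(FPKM + 1), and the adjusted p was 0.0848 (limma). Novel_1859, 715 bases on chromosome 3, had 18.3 and 12.9 FPKM under HN and 121 and 37.4 FPKM under LN, from 963 fragments (adjusted p = 0.172, limma). Its treatments did not overlap, and the LN replicates were far apart.

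Long loci of the same kind lay on both sides. Novel_48, 11532 bases on chromosome 1, had 452 and 216 FPKM under HN and 24.2 and 6.94 FPKM under LN (adjusted p = 0.0810, limma). Novel_3118, which carried the bounds of GRMZM5G873765, had 643 and 298 FPKM under HN and 167 and 7.60 under LN (adjusted p = 0.260, limma). Novel_657 had 38.1 and 136 FPKM under HN and 582 and 165 FPKM under LN. Novel_658 was listed with the same bounds as Novel_657 and had 22.2 and 112 FPKM under HN and 392 and 107 FPKM under LN. Novel_1454, which carried the bounds of GRMZM2G058970/GRMZM2G063544, had 259 and 518 FPKM under HN and 1094 and 936 under LN (adjusted p = 0.164, limma). The treatments did not overlap at Novel_48, Novel_3118, Novel_657 and Novel_1454, and overlapped at Novel_658.

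The median change was below that of annotated loci, by more in the long class than in the short one. The median difference in log2(FPKM + 1), low minus high nitrogen, was -0.13 for short and -0.15 for long loci, against -0.06 and 0.00 for annotated loci of these classes, a gap of -0.07 and -0.15. The short gap was -0.06 with libraries scaled to a common median, -0.02 after quantile normalization and -0.03 with libraries scaled to equal FPKM sums, and the long gap was -0.15, -0.20 and -0.23 in the same order. Equal sums moved the median of all tested loci to 0.59, because the deposited FPKM summed to 1798408 and 1764398 under HN and to 1141129 and 1043303 under LN. Under that scaling the median of the unannotated loci was 0.39, so their median changed sign with this scaling while the gap in each class kept its sign. Long unannotated loci had a median of 4.66 and 3.76 FPKM in HN replicates 1 and 2, and 3.72 and 3.74 in LN replicates 1 and 2. For annotated loci of both classes together it was 9.44, 9.84, 9.77 and 9.87 FPKM in the same order. Short unannotated loci also had their highest median in HN replicate 1, at 4.49 FPKM against 3.69 in HN replicate 2. How far the gap rests on HN replicate 1 was not tested.

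Changes beyond 1 on that scale, called or not, were counted beside the background of 7.96% of all tested loci below -1 and 7.62% above 1. Of the short loci 171 (15.9%) were below -1 and 121 (11.3%) above 1, and annotated loci under 1000 bases gave 15.7% and 13.0%. Of the long loci 96 (8%) were below -1 and 53 (4.42%) above 1, against 7.04% and 7.29% for long annotated loci. With only loci at 1 FPKM or more in all libraries, 124 of the 1401 unannotated loci (8.85%) were below -1 and 47 (3.35%) above 1, compared with 6.70% and 5.85% of annotated loci. Under equal FPKM sums the 267 unannotated loci below -1 became 128 and the 174 above 1 became 428.

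Within 200 bases of an annotated gene the fitted changes of the locus and of the gene were correlated, and beyond 1000 bases more weakly. Among pairs at 1 FPKM or more in all libraries, the change of the unannotated locus and that of its nearest annotated locus correlated at r = 0.62 (rho = 0.60) at 1 to 200 bases (n = 82). At 201 to 1000 bases r was 0.38 (n = 119), and at 1001 to 5000 bases it was 0.00 (n = 172). It was 0.26 at 5001 to 50000 bases (n = 272) and 0.10 beyond (n = 84). Over all pairs in which both loci were tested the values were lower within 1000 bases, at 0.46 (n = 122), 0.17 (n = 166), 0.11 (n = 279), 0.14 (n = 507) and 0.08 (n = 171) from the nearest to the farthest bin. Short loci within 200 bases and at 1 FPKM or more in all libraries gave r = 0.68 (n = 45) and long ones r = 0.45 (n = 37). These correlations run across loci that share the same 4 libraries, and in part a neighbour, so they are a description and carry no p.

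**Figure D5:**
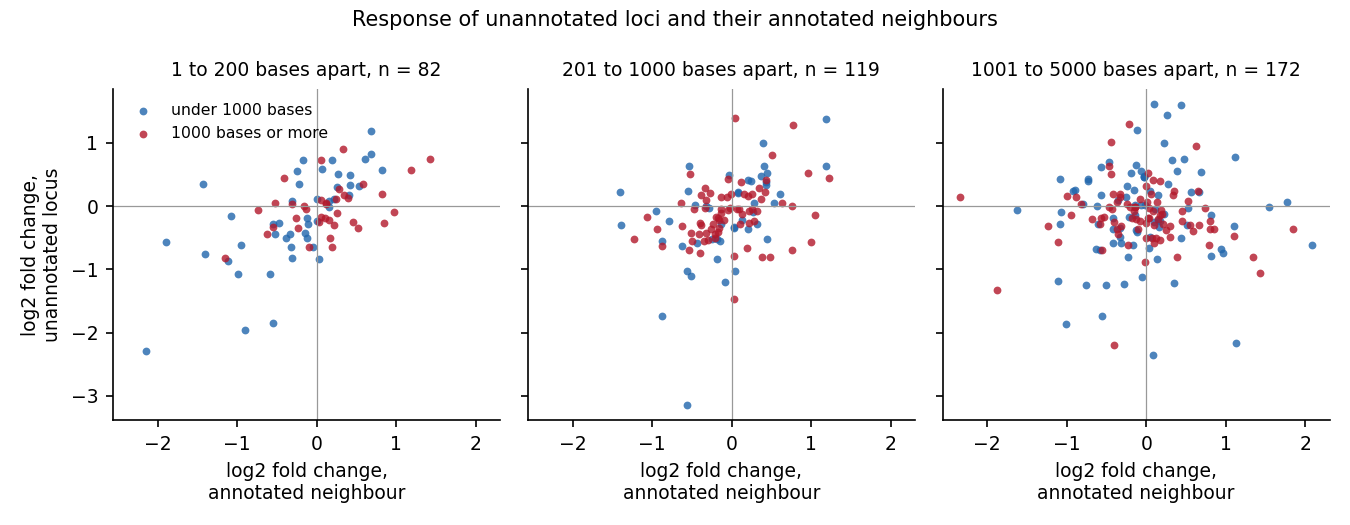
Change of each unannotated locus (vertical) against that of its nearest annotated locus (horizontal), both as log2 fold changes of low against high nitrogen on the FPKM + 1 scale, for pairs at 1 FPKM or more in all 4 libraries. Blue points are short and red points long loci. Points follow the diagonal at 1 to 200 bases (r = 0.62, n = 82) and form a round cloud at 1001 to 5000 bases (r = 0.00, n = 172).

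Of the 201 pairs within 1000 bases at 1 FPKM or more in all libraries, 17 had an unannotated locus with a fitted log2 change beyond 1, called or not. Of these 12 were below -1 and 5 above 1. Over all 1401 unannotated loci at that level 124 (8.85%) were below -1 and 47 (3.35%) above 1. In 15 of the 17 pairs the neighbour changed by less than 1, in some nearly as much. The other 2 pairs were as follows. Novel_2391, 691 bases on chromosome 5 and 122 bases from AC195954.3_FG001, had 34.9 and 18.3 FPKM under HN and 5.85 and 3.23 under LN, and its neighbour had 37.5, 14.3, 4.06 and 4.95 FPKM in the same order. Novel_3867, 436 bases on chromosome 9 and 227 bases from GRMZM6G474234, had 120 and 64.6 FPKM under HN and 322 and 166 under LN, beside 41.4, 47.0, 118 and 87.6 FPKM of the neighbour. In each pair both loci differed between treatments in the same direction, and none of them was called. They were chosen after their values were seen.

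A group of 3 short loci lay beside 1 of the 2 loci named PSBZ. PSBZ is the name of a small subunit of photosystem II that the plastid genome encodes, and here it labels a locus of 2012 bases on chromosome 5 (chr5:210040709-210042720) with 15.6 and 10.5 FPKM under HN and 13.0 and 5.31 under LN. The other locus of that name, farther along the chromosome (chr5:210341357-210343220), had 8.99 and 2.02 FPKM under HN and 9.65 and 5.85 under LN. The 3 short loci lay beside the PSBZ locus of 2012 bases, and distances are to that locus. Novel_2775, 168 bases away, had 32.1 and 21.6 FPKM under HN and 8.88 and 4.90 under LN. Novel_2776, 861 bases away and 230 bases long, had 486 and 208 FPKM under HN and 23.7 and 51.5 under LN, worth 23 fragments in all. Novel_2777, 1459 bases away, had 42.1 and 32.4 FPKM under HN and 9.76 and 11 under LN, from 349 fragments. All 3 had both HN libraries above both LN ones, by -1.84 ± 0.36, -3.15 ± 0.56 and -1.74 ± 0.24 (SE) in log2(FPKM + 1). Their adjusted p (limma) of 0.118, 0.106 and 0.0755 missed the threshold. The difference from the PSBZ locus of 2012 bases, at -0.56, was not tested. Novel_2775 and Novel_2777 were chosen after their values were seen.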

How the data were processed

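Per the labels and the methods, reads of 4 maize leaf libraries were aligned by the authors to B73 RefGen_v3 with TopHat2 and assembled with StringTie, edgeR was used for their own test, and FPKM per locus were deposited. Which tool wrote the FPKM, and on which strand a locus lies, is not given in the sources used here. The table's 44070 lines name 43110 loci, each counted once, with starts counted from 1. All FPKM are as deposited, with no count table used. Lengths are spans from start to end and hold introns.

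Loci that reached 1 FPKM in 2 or more libraries were compared on log2(FPKM + 1) with limma 3.58.1 in R 4.3.3 (lmFit, eBayes with a trend, two-sided), adjusted over 22889 loci. The step of 1 fragment was fitted per library. The limma fit and the step fit were tested on simulated data. The simulated steps followed the fragment length model at every length, so a departure from it under 360 bases was not tested. The rest was done in Python 3.11.15 with pandas 2.3.3, numpy 2.4.6, matplotlib 3.10.9 and scipy 1.17.1.

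The members and lists were chosen with earlier results of these data known. Named loci are the 4 highest of each length class, up to 5 called loci per class and direction, the 2 largest changes each way among loci at 1 FPKM in all libraries, the longest and shortest, those at the filter's edge, those sharing bounds with an annotated locus, the longest run and the 3 farthest. Pseudocount, filters, scaling, trend, replicate block, left-out libraries and length split were varied.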

Additional observations from a re-analysis of the deposited data

How the results depend on the processing

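Each alternative is given as all called loci, then short lower, short higher, long lower and long higher unannotated loci, which were 123, 13, 6, 2 and 1. With no filter on low values they were 23, 4, 1, 1 and 1, and with 1 FPKM in all 4 libraries 53, 1, 0, 0 and 0. In that last fit 19 short loci higher, and of the long ones 44 lower and 16 higher, had an unadjusted p under 0.05 with a fold change past the threshold (limma). A pseudocount of 0.1 gave 9 short and 2 long loci higher, and limma without the trend gave 8 and 2. A mean of at least 5 FPKM gave 10 short loci lower, 4 short ones higher and 1 long locus lower. Splitting at 500 bases put 6 long loci lower, and at 2000 bases 1. Scaling to equal FPKM sums, chosen after seeing the data, gave 60 calls in all and 8 short loci lower. Leaving out members under 30 fragments, also chosen after seeing the data, gave 7 short lower and 0 short higher. Median scaling, quantile normalization and dropping the fold threshold moved no member count.

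Leaving out 1 library gave 0 to 16 calls in all, 0 to 3 short loci lower, and 0 to 0 in the other classes. Without HN replicate 1 there were 16 and 3, and without each other library 0. These fits assume that the lone library varies like the other group. Their unadjusted counts (p under 0.05, fold past the threshold, limma) ran from 99 to 153 short lower, 53 to 116 short higher, 46 to 93 long lower and 28 to 67 long higher.

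Same-numbered libraries deviated together (r = 0.20 over tested loci, 0.16 over unannotated ones), but the labels do not say that a number pairs them. With the replicate block 617 loci were called, with 44, 21, 16 and 7 in the 4 classes. Under the block Novel_3197, Novel_48, Novel_2775, Novel_2777 and Novel_1648 passed the test (adjusted p = 0.0129, 0.00449, 0.0345, 0.0436 and 0.0442, limma), and Novel_1648 also passed with a mean of at least 5 FPKM and without the trend. Of 30 loci with a reported change, 2 reversed, Novel_2421 (0.12) and Novel_670 (0.0052), both after quantile normalization. With annotated loci that pass the filter as neighbours the median distance was 20425 bases for short and 22426 for long loci. Over loci at 1 FPKM in all 4 libraries the median level was 13.9 FPKM for short and 6.47 for long unannotated loci, against 12.8 and 12.3 for annotated ones. Of the 891 loci with a fragment number 188 rested on under 10 fragments.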
